A study of Mus musculus with 12 samples.

Results

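The tumour necrosis factor (TNF) superfamily was followed across colorectal tissue of 12 mice as 41 genes, 17 ligands and 24 receptors, of 18514 genes in the count table. Members were taken by name: every gene whose symbol is Tnf, Tnfsf with a number or Tnfrsf with a number, plus Lta, Ltb, Ltbr, Cd27, Cd40, Cd40lg, Cd70, Fas and Fasl. The name rule uses no expression level, but the family was chosen with earlier results of these data known. Of the 41 genes, 38 passed the filter on low counts and were tested. The remaining 3 ligands, Cd70, Tnfsf4 and Tnfsf18, had at most 10 counts in any mouse.

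The mice were male C57BL/6 animals bought at 4 weeks of age, with 1 library per mouse and 3 mice in each of 4 groups. Ctrl mice (numbered 1, 2 and 3) drank plain water and did not swim. Ctrl_Swim mice (2, 3 and 4) drank plain water and swam for up to 90 min per day. Model mice (1, 2 and 3) received the carcinogen azoxymethane (AOM) once into the peritoneum, at a dose of 10 mg/kg. Their water then held 2% dextran sulfate sodium (DSS), which injures the colonic epithelium, in 3 cycles of 7 days each. Model_Swim mice (1, 2 and 3) received the same AOM/DSS and swam like the Ctrl_Swim mice, with training that began before AOM/DSS. Mice that did not swim stood in shallow water. RNA came from colorectal tissue in bulk, not from sorted cells. The sources used here do not say whether a piece held tumour, nor how the 3 sequenced mice were picked from study groups of 5 (without AOM/DSS) or 10 (with AOM/DSS).

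The ligands of this superfamily are mostly trimeric proteins of the cell surface, some of which are cut off to act at a distance, and each binds 1 or several receptors. Receptors with a death domain, such as TNFR1 (Tnfrsf1a) and FAS, can recruit the adaptors that lead to caspases, while others bind TRAF proteins and feed the NF-kB pathways. In the gut the family is known for its part in inflammation, in the building of lymphoid follicles and the survival of B cells, in costimulation of T cells, and in epithelial death and repair.

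Several members lie side by side in the genome (GRCm38.p6, RefSeq). Ltb, Tnf and Lta stand in a row on chromosome 17, with 3061 bp between Ltb and Tnf and 1157 bp between Tnf and Lta. Tnfsf13 and Tnfsf12 are 685 bp apart on chromosome 11, Tnfrsf4 and Tnfrsf18 are 9708 bp apart on chromosome 4, and Tnfrsf26, Tnfrsf22 and Tnfrsf23 follow each other on chromosome 7. The 250 bases before the annotated transcription start are shown for 5 members that were higher in Model than in Ctrl: the 4 whose difference had an adjusted p under 0.05 in all 24 alternative fits (Tnf, Ltb, Tnfrsf1b and Tnfrsf13c), and Tnfrsf9, the other higher member in which an NF-kB motif was found. Sequences are from RefSeq, 5′ to 3′ on the strand of the gene, and capitals mark matches to the NF-kB motif.
Ltb, chr17:35194257-35194506, plus strand: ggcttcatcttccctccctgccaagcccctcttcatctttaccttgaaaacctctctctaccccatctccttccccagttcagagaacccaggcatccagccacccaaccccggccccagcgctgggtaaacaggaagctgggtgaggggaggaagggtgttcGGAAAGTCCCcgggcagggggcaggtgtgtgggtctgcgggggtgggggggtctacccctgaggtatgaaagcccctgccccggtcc
Tnf, chr17:35202008-35202257, minus strand: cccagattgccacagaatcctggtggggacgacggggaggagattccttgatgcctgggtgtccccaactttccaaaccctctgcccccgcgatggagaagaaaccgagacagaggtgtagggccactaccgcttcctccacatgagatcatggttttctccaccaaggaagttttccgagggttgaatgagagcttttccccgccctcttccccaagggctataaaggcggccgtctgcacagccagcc
Tnfrsf9, second of 2 annotated starts, chr4:150927749-150927998, plus strand: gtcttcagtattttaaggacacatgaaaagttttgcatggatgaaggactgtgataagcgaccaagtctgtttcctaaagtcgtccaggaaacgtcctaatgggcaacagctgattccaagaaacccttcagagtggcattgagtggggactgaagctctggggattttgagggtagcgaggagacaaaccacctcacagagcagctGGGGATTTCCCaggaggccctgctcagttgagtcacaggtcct
Tnfrsf1b, chr4:145246871-145247120, minus strand: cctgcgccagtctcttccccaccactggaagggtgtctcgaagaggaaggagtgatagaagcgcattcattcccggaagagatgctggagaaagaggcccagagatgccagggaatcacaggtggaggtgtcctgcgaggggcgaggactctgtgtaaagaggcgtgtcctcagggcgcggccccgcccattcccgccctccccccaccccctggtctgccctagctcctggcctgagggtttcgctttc
Tnfrsf13c, chr15:82224381-82224630, minus strand: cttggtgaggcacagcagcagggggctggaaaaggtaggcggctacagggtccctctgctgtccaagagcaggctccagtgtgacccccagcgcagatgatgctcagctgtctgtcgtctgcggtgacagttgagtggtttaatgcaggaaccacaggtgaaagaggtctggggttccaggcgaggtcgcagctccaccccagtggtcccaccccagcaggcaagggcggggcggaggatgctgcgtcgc

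The NF-kB consensus of 10 letters was searched on both strands. In the Ltb window it matched once, as GGAAAGTCCC, from 87 to 78 bases before the start. In the Tnfrsf9 window it had 2 overlapping matches, GGGGATTTCC and GGGATTTCCC, the first of them from 43 to 34 bases before the start. Of the 31 members with a promoter sequence, 4 held a match (12.9%, the others being Tnfrsf8 and Tnfrsf25), beside 10.3% of the 13883 genes of the count table that have one. Of the 12 members with a sequence that were higher in Model, 2 held a match, as did 2 of the 17 members that did not pass. A match of letters is a description of the window, and the windows of Tnf, Tnfrsf1b and Tnfrsf13c without one cover only these 250 bases.

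In untreated colon the most abundant members were receptors. Levels between genes are compared here as FPKM, fragments per length of transcript and depth of library, in the 3 Ctrl mice. The highest level was that of Ltbr, the lymphotoxin beta receptor, at 58.4 ± 0.613 FPKM (SD, n = 3). Next came the TNF receptor Tnfrsf1a at 41.7 ± 2.75, the death receptor DR6 (Tnfrsf21) at 23.3 ± 2.30, RANK (Tnfrsf11a) at 20.1 ± 0.861 and the TWEAK receptor FN14 (Tnfrsf12a) at 11.8 ± 0.807 FPKM. The Ctrl mice of each of these 5 genes did not overlap those of the next gene in the order. Tnfrsf14 (HVEM) at 8.88 ± 0.579 and Tnfrsf1b (TNFR2) at 7.74 ± 0.539 FPKM followed and did overlap.

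The most abundant ligand, APRIL (Tnfsf13), was only the 8th member in this order, at 5.97 ± 0.614 FPKM. TRAIL (Tnfsf10) had 4.81 ± 0.853, BAFF (Tnfsf13b) 4.45 ± 0.710 and lymphotoxin beta (Ltb) 3.85 ± 0.522 FPKM, and neighbours among these overlapped. Tnf itself was 30th, at 0.344 ± 0.0824 FPKM, and its Ctrl mice overlapped those of Lta above it and of Cd27 below it. Cd40lg was scarcer still, at 0.138 ± 0.0483 FPKM against 1.17 ± 0.0869 for its receptor Cd40. Summed over the 17 ligands the level was 24.6 ± 1.23 FPKM in Ctrl mice, and over the 24 receptors it was 195 ± 7.31 FPKM. In Model mice the sums were 46.1 ± 3.16 FPKM for ligands, between 44.3 and 49.8, and 245 ± 29.5 FPKM for receptors, between 211 and 263. On this scale neither overlapped the Ctrl range. These FPKM lack the TMM correction of library size that the CPM below carry. Its factors were 0.932, 0.954 and 0.940 in Ctrl and 1.02, 1.04 and 1.01 in Model mice. Divided by these factors, the receptor ranges of Ctrl and Model overlap and the ligand ranges do not.

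**Figure D1:**
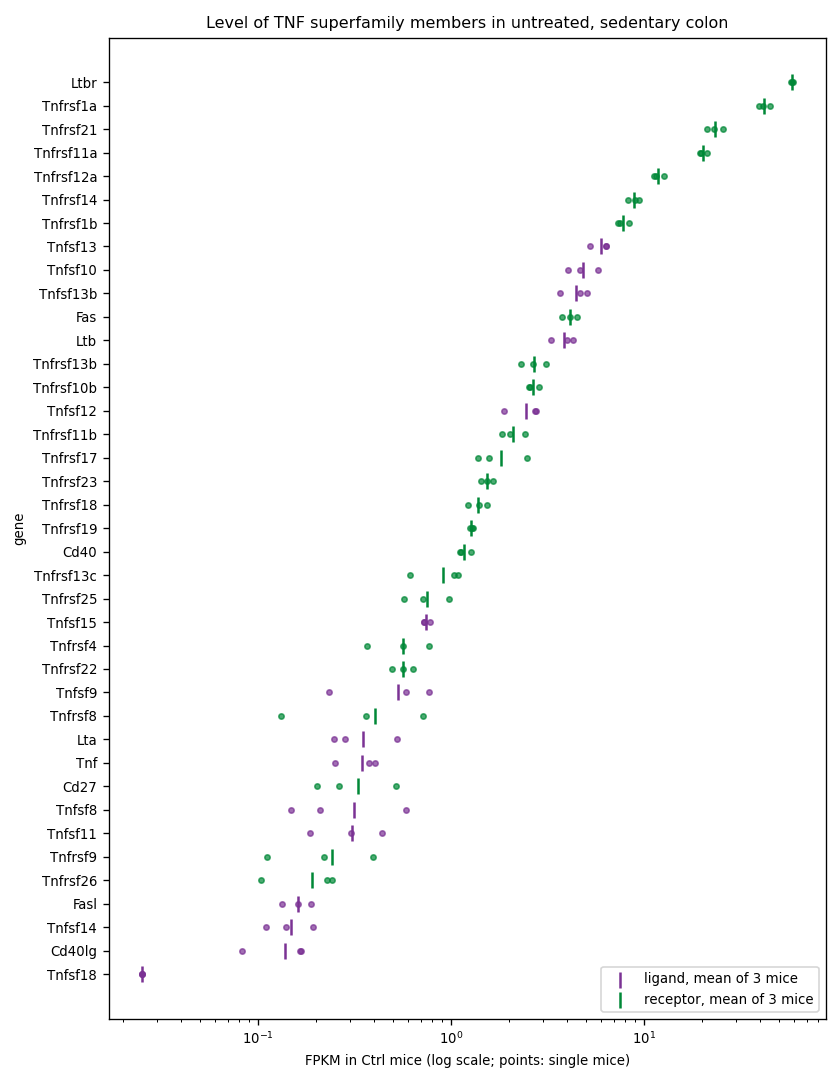
FPKM of 39 members in the 3 Ctrl mice on a log scale, with single mice as points and their mean as a tick, ligands and receptors in separate colours. Ltbr leads at 58.4 FPKM, the first 7 places are receptors, and Tnf stands at 0.344 FPKM.

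Total counts lay between 17256953 and 19451055 per library, and levels are given as CPM, the count scaled to the TMM-corrected library size. Where no read was counted, up to 3 counts are possible, which is between 0.153 and 0.172 CPM and covers counting error only. All 13 genes of a colonic epithelium list had counts in every mouse. Some libraries stood apart. Genes of pancreatic acinar cells summed to 53115 CPM in Model 1 and 25885 CPM in Model 3, and to between 100.3 and 451 CPM in the other mice. Genes of squamous epithelium summed to 551 CPM in Model 1, 1490 in Model 2, 990.3 and 1073 in Model_Swim 2 and 3 and 422 in Ctrl_Swim 4, to 116 in Model_Swim 1, and to between 3.19 and 58.0 CPM in the rest, Model 3 (4.36) included. Ctrl_Swim 4 also had the highest B cell and T cell marker sums of the 6 mice without AOM/DSS.

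The family stood higher in Model than in Ctrl mice. Between Model and Ctrl, 17 members were higher and 1, Ltbr, was lower in Model at an adjusted p under 0.05, against 16.5% of all 15484 genes tested that were higher and 16.2% that were lower (32.7% in all). The median log2 fold change was 0.88 over the 38 members and 0.01 over all genes, and 34 members had a value above 0, as did 50.5% of all genes. Of the 38 members 22 had no overlap between the groups, beside 44.2% of all genes, and the 18 that passed were among them. With a 2-fold cutoff added, 11 members passed, beside 7.43% of all genes. Leaving out the acinar-rich Model 1 and Model 3 gave 19 members and 32.7% of all genes, but only 12 of the 18 were among them: Cd27, Cd40, Tnfrsf13b, Tnfrsf18, Tnfrsf4 and Tnfsf14 were lost and 7 others gained. Leaving out the squamous-rich Model 1 and Model 2, a choice made after seeing the data, gave 8 members, all of them among the 18, and 19.9% of all genes. With the mean log2 CPM of the acinar or the squamous genes as a covariate 11 and 8 members passed, beside 19.9% and 17.5% of all genes. In fits without 2 Model mice the lone Model mouse is assumed to vary like the other groups. Tissue was sequenced in bulk, so more cells that express a gene and more RNA per cell cannot be told apart.

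**Figure D2:**
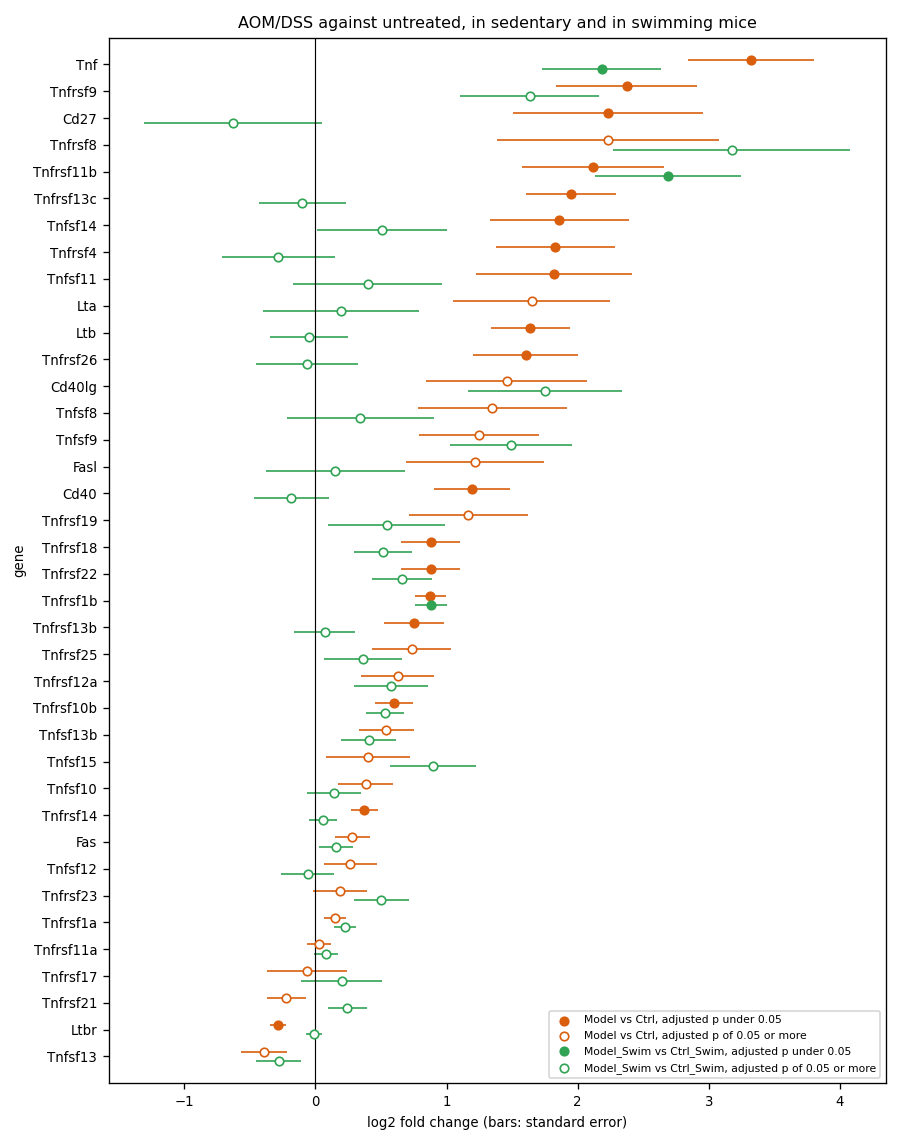
Log2 fold change with its standard error for the 38 members tested, AOM/DSS against no AOM/DSS, in mice that did not swim (orange) and in mice that swam (green). Filled points had an adjusted p under 0.05, which were 18 members in the former and 3 in the latter, and no mouse is in both comparisons.

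TNF and its own receptors are the core of the family. Tnf, the macrophage and T cell cytokine, had 0.718, 0.654 and 0.440 CPM in Ctrl 1, 2 and 3 and 8.52, 7.03 and 2.70 CPM in Model 1, 2 and 3. It was at 0.986, 0.692 and 1.07 CPM in Ctrl_Swim 2, 3 and 4 and at 2.37, 4.68 and 5.51 CPM in Model_Swim 1, 2 and 3. Every mouse given AOM/DSS was above every mouse that was not, and Model 3 was the lowest of the Model mice. Model exceeded Ctrl by a log2 fold change of 3.32 ± 0.48 (SE), with an adjusted p of 0.00101 by edgeR's quasi-likelihood test, the largest fitted value of the family. Without the squamous-rich Model 1 and Model 2 it was 2.15 (adjusted p = 0.0153), smaller than that of Cd27 (2.57, adjusted p = 0.0634) in the same fit. These levels rest on 8 to 13 counts per Ctrl mouse and 47 to 159 per Model mouse.

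Tnfrsf1b, the TNF receptor of leukocytes that signals without a death domain, was at 44.0, 37.8 and 39.3 CPM in Ctrl mice, 33.3, 36.7 and 33.9 in Ctrl_Swim mice, 81.7, 82.2 and 58.4 in Model mice and 59.6, 66.6 and 65.05 in Model_Swim mice. As with Tnf, all 6 mice given AOM/DSS lay above the other 6. Model exceeded Ctrl by a log2 fold change of 0.88 ± 0.12, with the smallest adjusted p of the family, 0.000835. Tnfrsf1a, the widely expressed TNF receptor with a death domain, had means of 95.5 ± 7.41 CPM (SD, n = 3) and 106 ± 11.3 CPM in Ctrl and Model mice, which overlapped (log2 fold change 0.15 ± 0.08, adjusted p = 0.179). Whether the 2 receptors differ in their change was not tested.

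The lymphotoxins are made by lymphocytes and organise lymphoid tissue. Ltb had 4.69, 3.76 and 5.002 CPM in Ctrl mice and 12.5, 11.8 and 17.7 CPM in Model mice, without overlap, a log2 fold change of 1.64 ± 0.30 (adjusted p = 0.00316). Its partner Lta had 0.938, 0.491 and 0.440 CPM in Ctrl and 1.82, 2.02 and 2.07 CPM in Model mice. The Model mice were again the higher ones, but Lta did not pass (log2 fold change 1.65 ± 0.60, adjusted p = 0.0551). It passed in 7 alternative fits, among them DESeq2 (adjusted p = 0.0276) and the fit of these 6 mice alone (0.0230). Ltbr, the receptor of stromal and epithelial cells for lymphotoxin and LIGHT, moved the other way, with 133, 128 and 129 CPM in Ctrl and 107, 111 and 101 CPM in Model mice. That was the one fall of the family, small in size (log2 fold change -0.29 ± 0.06, adjusted p = 0.00619) and beside 6 of 13 colonic epithelium genes that were lower and 0 that were higher in Model. The Ltbr call was lost with the acinar covariate. The part of the epithelial share in the Ltbr value was not tested.

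LIGHT (Tnfsf14), a T cell ligand of both HVEM and the lymphotoxin beta receptor, had 0.386, 0.273 and 0.220 CPM in Ctrl and 1.55, 0.763 and 0.918 CPM in Model mice, on 4 to 29 counts per mouse. Its log2 fold change was 1.86 ± 0.53 (adjusted p = 0.0216), which was lost without Model 1 (adjusted p = 0.0665) and without Ctrl 2 or Ctrl 3. Tnfrsf14 (HVEM) had 19.0, 19.6 and 17.5 CPM in Ctrl and 21.3, 27.2 and 24.2 CPM in Model mice. The groups did not overlap and the difference was modest (log2 fold change 0.37 ± 0.11, adjusted p = 0.0202), and it was lost without Ctrl 3 (adjusted p = 0.0636) or Model 2 (0.0570). In this group of 8 genes, 5 were higher, 1 lower and 2 did not pass.

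**Figure D3:**
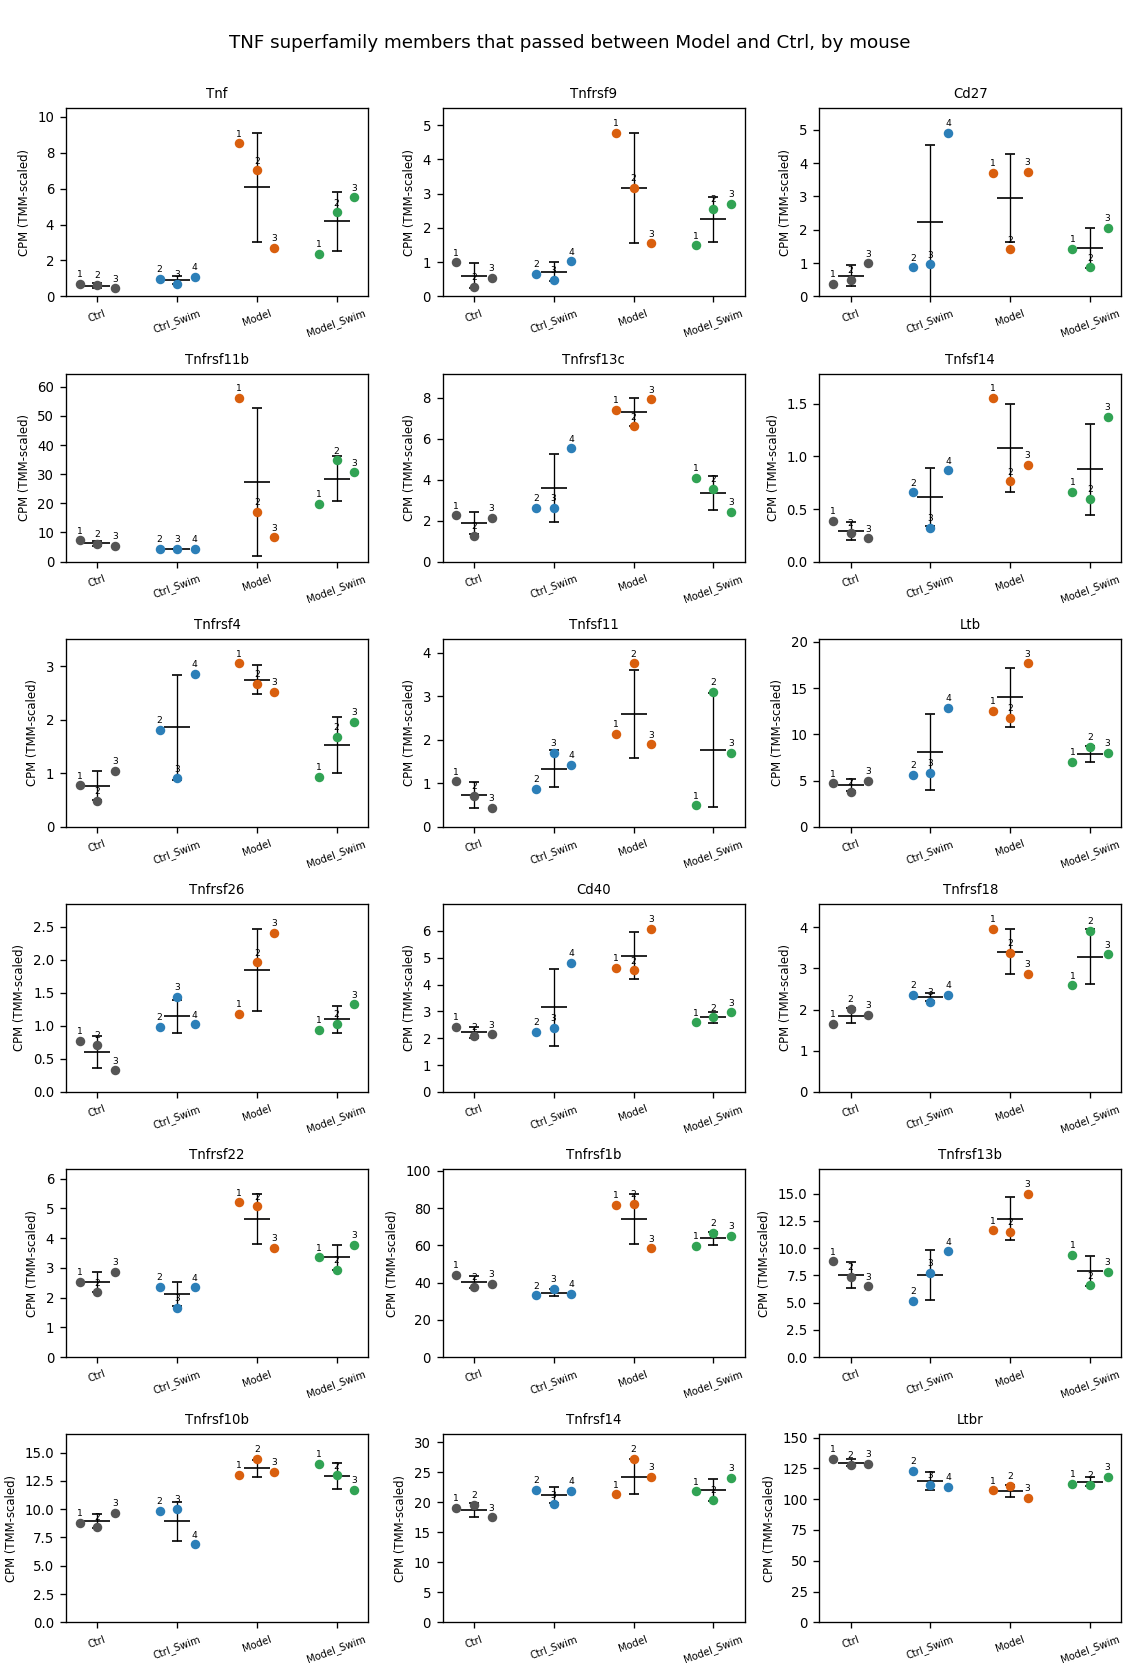
CPM by mouse for the 18 members that passed between Model and Ctrl, in the order of their log2 fold change, with mouse numbers beside the points and the mean and SD of each group as bars, each axis from 0. Tnf in Model spans 2.70 to 8.52 CPM, and in Cd27 the highest mouse is Ctrl_Swim 4 at 4.91 CPM.

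BAFF and APRIL keep B cells and plasma cells alive through 3 receptors, 2 of which passed. Tnfrsf13c (BAFF receptor), a marker of mature B cells, had 2.26, 1.25 and 2.14 CPM in Ctrl and 7.40, 6.59 and 7.92 CPM in Model mice, a log2 fold change of 1.95 ± 0.34 (adjusted p = 0.00245). The lowest Model mouse lay well above the highest Ctrl mouse. Tnfrsf13b (TACI) had 8.78, 7.36 and 6.49 CPM in Ctrl and 11.6, 11.5 and 15.0 CPM in Model mice (log2 fold change 0.75 ± 0.23, adjusted p = 0.0284), a call lost without Model 3 (0.0691) and without Ctrl 2 or Ctrl 3.

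The plasma cell receptor Tnfrsf17 (BCMA) had 2.78 ± 0.862 CPM in Ctrl and 2.66 ± 0.757 CPM in Model mice, with overlap (log2 fold change -0.06 ± 0.30, adjusted p = 0.890). The ligands did not pass either. BAFF (Tnfsf13b) had means of 10.1 ± 1.72 CPM and 14.6 ± 4.58 CPM in Ctrl and Model mice, where Model 2 alone had 19.8 CPM, with an adjusted p of 0.0669 that became 0.0148 without Model 3. APRIL (Tnfsf13) had a log2 fold change of -0.39 ± 0.17 (adjusted p = 0.101), and without Model 3 it passed as lower in Model (adjusted p = 0.0392). Tnfsf13 shares 60.1% of its exon bases on the same strand with the read-through gene Tnfsfm13, so its counts are uncertain, and the same holds for TWEAK (Tnfsf12) with 48.3%.

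The costimulatory members that passed were all receptors of T or B cells. The receptors 4-1BB (Tnfrsf9), OX40 (Tnfrsf4) and GITR (Tnfrsf18) appear on activated and regulatory T cells. Tnfrsf9 had 0.994, 0.273 and 0.550 CPM in Ctrl and 4.77, 3.16 and 1.55 CPM in Model mice, a log2 fold change of 2.37 ± 0.54 (adjusted p = 0.00789). Tnfrsf4 had 0.773, 0.491 and 1.04 CPM in Ctrl and 3.06, 2.67 and 2.53 CPM in Model mice, with a narrow spread in Model and a log2 fold change of 1.83 ± 0.45 (adjusted p = 0.0114). Tnfrsf18 had 1.66, 2.02 and 1.87 CPM in Ctrl and 3.97, 3.38 and 2.87 CPM in Model mice (log2 fold change 0.88 ± 0.22, adjusted p = 0.0131). All 3 were higher in every Model mouse than in any Ctrl mouse. Without the squamous-rich Model 1 and Model 2 none of the 3 passed, with log2 fold changes of 1.35 for Tnfrsf9 (adjusted p = 0.171), 1.71 for Tnfrsf4 (0.0802) and 0.64 for Tnfrsf18 (0.175). Without the acinar-rich Model 1 and Model 3 the calls of Tnfrsf4 (0.0545) and Tnfrsf18 (0.0590) were lost. Of the Tnfrsf18 exon bases, 27.2% lie opposite the antisense gene Gm16008, and the strand setting of the counting is not given in the sources used here.

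Cd40, which receives T cell help on B cells, macrophages and epithelium, had 2.43, 2.07 and 2.14 CPM in Ctrl and 4.61, 4.52 and 6.08 CPM in Model mice. Its log2 fold change was 1.19 ± 0.29 (adjusted p = 0.0104), and 1.01 without the acinar-rich Model 1 and Model 3. The Cd40 call was lost in that fit and with the acinar covariate. Cd27, a receptor of T cells and memory B cells, had 0.386, 0.491 and 0.990 CPM in Ctrl and 3.70, 1.42 and 3.73 CPM in Model mice. Model 2 was close to the highest Ctrl mouse, and the call (log2 fold change 2.23 ± 0.72, adjusted p = 0.0363) was lost in fits without Ctrl 1, Ctrl 2, Ctrl 3, Model 1 or Model 3, up to an adjusted p of 0.387 over all alternatives.

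No ligand of this group passed. Cd40lg had 0.183 ± 0.0627 CPM in Ctrl and 0.515 ± 0.0312 CPM in Model mice, without overlap but on 2 to 10 counts per mouse (adjusted p = 0.0874). Tnfsf9 (4-1BB ligand) had 0.750 ± 0.391 CPM in Ctrl and 1.79 ± 0.726 CPM in Model mice, also without overlap, on 24 to 49 counts per Model mouse (log2 fold change 1.25 ± 0.46, adjusted p = 0.0578). Tnfsf9 did pass in 6 alternative fits, among them DESeq2 (adjusted p = 0.0464). Cd70, the ligand of Cd27, had 0 or 1 count in every mouse, Tnfsf4 (OX40 ligand) 0 to 6 and Tnfsf18 (GITR ligand) 0 to 10, so no fold was taken for them. Tnfsf15 (TL1A), a ligand of endothelial and myeloid cells, had 4.59 ± 0.131 CPM in Ctrl and 6.06 ± 2.34 CPM in Model mice with an adjusted p of 0.358, and its receptor Tnfrsf25 (DR3) had 2.03 ± 0.565 and 3.39 ± 1.00 CPM with an adjusted p of 0.0811. Of the 14 costimulatory members, 5 were higher, 6 did not pass and 3 were not tested.

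Of the death ligands and receptors, 3 of 8 were higher and 5 did not pass. Tnfrsf10b, the mouse TRAIL receptor with a death domain, had 8.78, 8.45 and 9.68 CPM in Ctrl and 13.0, 14.4 and 13.3 CPM in Model mice (log2 fold change 0.60 ± 0.15, adjusted p = 0.0111). Tnfrsf22, a TRAIL decoy receptor, had 2.54, 2.18 and 2.86 CPM in Ctrl and 5.20, 5.07 and 3.67 CPM in Model mice (log2 fold change 0.88 ± 0.23, adjusted p = 0.0143). Tnfrsf26, its neighbour in the same cluster of receptor genes, had 0.773, 0.709 and 0.330 CPM in Ctrl and 1.18, 1.96 and 2.41 CPM in Model mice (log2 fold change 1.60 ± 0.40, adjusted p = 0.0122). None of these 3 overlapped between the groups. Without the squamous-rich Model 1 and Model 2 the calls of Tnfrsf22 (log2 fold change 0.54, adjusted p = 0.246) and Tnfrsf10b (0.57, 0.0727) were lost. The Tnfrsf22 call was also lost without Ctrl 2 and with the squamous covariate, and those of Tnfrsf10b and Tnfrsf26 with the acinar covariate. The third gene of the cluster, the decoy Tnfrsf23, had an adjusted p of 0.510. Tnfrsf22 and Tnfrsf23 have 17.3% and 18.01% of their stretches of 50 bases in common, so reads could pass from one to the other.

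TRAIL (Tnfsf10) itself had 25.3 ± 4.44 CPM in Ctrl and 33.0 ± 8.95 CPM in Model mice and did not pass (adjusted p = 0.173). Fas, the death receptor of epithelium and lymphocytes, had 9.49, 7.69 and 8.63 CPM in Ctrl and 9.27, 10.5 and 11.6 CPM in Model mice, a narrow range in both (log2 fold change 0.28 ± 0.13, adjusted p = 0.120). Fasl, its ligand on cytotoxic T and natural killer cells, had 0.276, 0.382 and 0.330 CPM in Ctrl and 0.322, 1.25 and 0.746 CPM in Model mice. Model 1 lay within the Ctrl range and Model 2 was the highest of all 12 mice, and Fasl did not pass (adjusted p = 0.0955). Without Model 1 it did (adjusted p = 0.0294).

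The last group holds ligands and receptors of bone, stroma and epithelium. RANK ligand (Tnfsf11), which in the gut is made by stromal cells beneath follicles, had 1.05, 0.709 and 0.440 CPM in Ctrl and 2.14, 3.76 and 1.89 CPM in Model mice (log2 fold change 1.82 ± 0.59, adjusted p = 0.0373). Its soluble decoy osteoprotegerin (Tnfrsf11b) had 7.34, 5.997 and 5.497 CPM in Ctrl, 4.44, 4.42 and 4.34 CPM in Ctrl_Swim, 56.1, 17.1 and 8.38 CPM in Model and 19.8, 34.8 and 30.7 CPM in Model_Swim mice. All 6 AOM/DSS mice were above the other 6, yet Model 1 and Model 3 differed by far more than any mice without AOM/DSS. Model exceeded Ctrl by a log2 fold change of 2.12 ± 0.54 (adjusted p = 0.0133), and without the squamous-rich Model 1 and Model 2 it was 0.42 (adjusted p = 0.316). The Tnfrsf11b call was also lost without Ctrl 2 (0.0503) or Ctrl 3 (0.0525), with the acinar or the squamous covariate, and in a fit of Ctrl and Model mice alone. For Tnfsf11 the call was lost without Ctrl 1, Ctrl 2, Ctrl 3, Model 2 or Model_Swim 3, and with either covariate.

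RANK (Tnfrsf11a), the receptor that competes with osteoprotegerin for this ligand, had 107 ± 4.86 CPM in Ctrl and 109 ± 15.5 CPM in Model mice, a log2 fold change of 0.03 ± 0.09. The TWEAK receptor Tnfrsf12a had 13.2, 11.3 and 11.8 CPM in Ctrl and 25.9, 18.03 and 12.2 CPM in Model mice, with Model 3 inside the Ctrl range (adjusted p = 0.103), and it passed without that mouse (adjusted p = 0.0202). Its ligand Tnfsf12 had 4.41 ± 0.854 and 5.31 ± 0.406 CPM (adjusted p = 0.329). Among the other members, Tnfrsf8 (CD30, a receptor of activated lymphocytes) and Tnfrsf19 (TROY, a receptor of stem and progenitor cells) had wide ranges in Model, from 0.287 to 6.16 CPM and from 4.82 to 27.7 CPM. Model 3 was the lowest Model mouse in both, and both passed as higher in Model without it. Tnfsf8, the ligand of CD30, and the death receptor Tnfrsf21 had adjusted p-values of 0.0875 and 0.272.

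Markers of most immune and stromal cells stood higher in Model mice, where 16.5% of all genes were higher. Plasma cell markers overlapped, with sums between 1376 and 1861 CPM in Ctrl and between 1574 and 2016 CPM in Model mice (2 of 8 higher). The B cell and follicle list of 13 genes summed to 115, 59.4 and 91.1 CPM in Ctrl 1, 2 and 3 and to 217, 214 and 254 CPM in Model 1, 2 and 3, with 12 of 13 genes higher in Model. T cell markers summed to between 56.3 and 59.4 CPM in Ctrl and between 116 and 149 CPM in Model mice (10 of 13 higher), and macrophage markers to between 449 and 466 and between 856 and 927 CPM (10 of 11 higher). Neutrophil markers, 7 of 10 higher, summed to between 12.6 and 23.7 CPM in Ctrl and to 142, 94.6 and 24.0 CPM in Model 1, 2 and 3. Fibroblast markers summed to between 1401 and 1538 CPM in Ctrl and between 2451 and 2756 CPM in Model mice (7 of 8 higher), and endothelial markers to between 244 and 259 and between 311 and 331 CPM (2 of 8 higher), both without overlap. Of the 17 members higher in Model, 7 had their highest Model level in Model 1, 4 in Model 2 and 6 in Model 3. Tnf, Tnfrsf9, Tnfrsf11b, Tnfrsf4 and Tnfrsf18 had their highest level in Model 1 and their lowest in Model 3. The T cell ligand Tnfsf14 was also highest in Model 1. Ltb, Tnfrsf13c, Cd40 and Cd27 were highest in Model 3, as were the B cell and T cell sums. No marker of the B cell, T cell or macrophage lists was at 0 in any mouse, while 3 of the 10 neutrophil markers were at 0 in at least 1 mouse. The part of these cell types in the family's values was not tested.

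**Figure D4:**
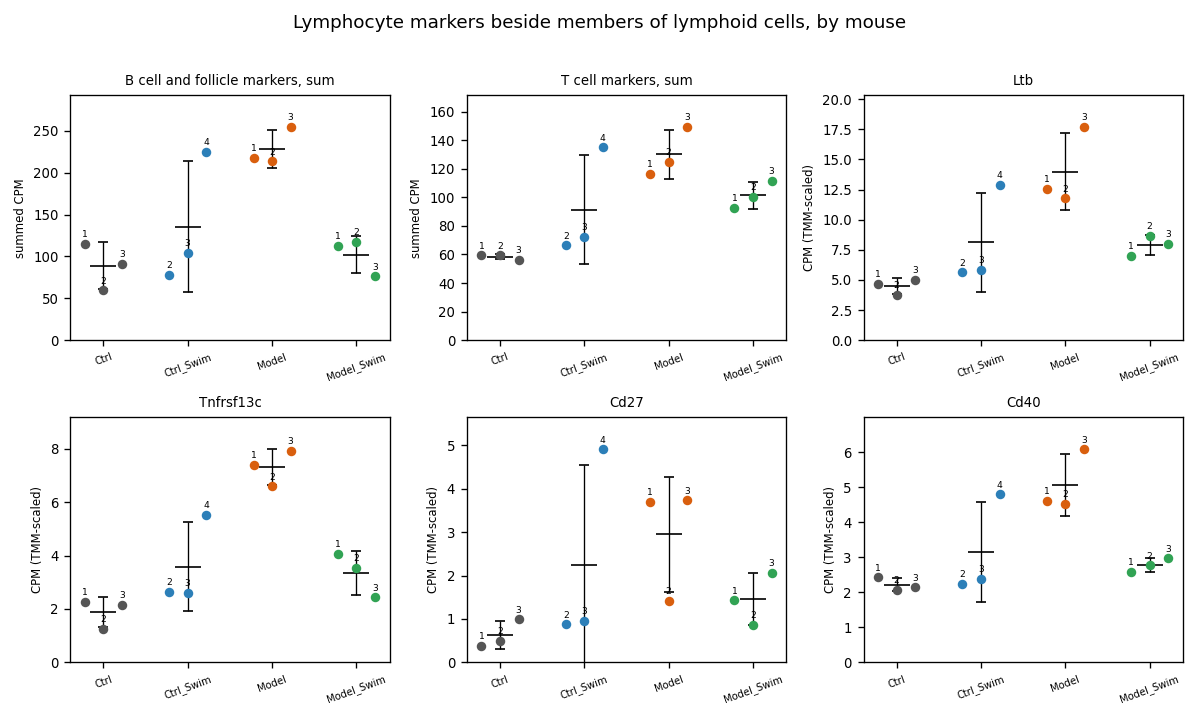
Summed CPM of 13 B cell and follicle markers and of 13 T cell markers, and CPM of Ltb, Tnfrsf13c, Cd27 and Cd40, by mouse, with the mean and SD of each group. Ctrl_Swim 4 stands above the other Ctrl_Swim mice in all 6 panels, with 225 CPM of B cell markers beside 77.7 and 104.

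Genes that act around the family were described from lists by role. Of 18 adaptors and kinases of the receptors, 6 were higher and 2 lower in Model, each by less than 1 log2 unit. Over all genes 16.5% were higher and 16.2% lower, which is the background for all lists of this and the next paragraph. The largest was Map3k14, the kinase that starts the alternative NF-kB pathway (log2 fold change 0.66), followed by Traf5 (0.60) and Ikbkb (0.39). Those lower were Fadd, the death adaptor, and Chuk. Of 13 ubiquitin enzymes and brakes 4 were higher, with Tnfaip3 (A20), which NF-kB itself induces, at a log2 fold change of 0.81. Among the death effectors, Cflar, which holds back the caspase at the receptor, was higher (0.25) and Dap3 was lower (-0.32). Of 6 genes of TNF shedding, Adam17, the protease that frees TNF, and its partner Rhbdf2 were higher (0.27 and 0.42).

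Of 20 genes that TNF is known to induce, 18 were tested. Of these, 12 were higher and 1, the mitochondrial dismutase Sod2, was lower in Model (-0.42), and their median log2 fold change was 1.37. The neutrophil chemokine Cxcl5 had a mean of 31.2 CPM in Model and 0.274 CPM in Ctrl mice, and Cxcl1 and Cxcl2 had 4.69 and 2.52 CPM in Model with Ctrl means of 0.183 and 0.0731 CPM, close to or below the level of 3 counts. Of 9 genes downstream of lymphotoxin or of lymphoid follicles 8 were higher, among them Glycam1 (4.66), a ligand of L-selectin on high endothelial venules, the adhesion molecule Vcam1 (1.31, also in the TNF-induced list) and Cr2 (1.85), which marks B cells and follicular dendritic cells and is also in the B cell list. Of 6 tested relatives that the name rule leaves out, Edaradd, the adaptor of the ectodysplasin receptor (2.50), and the receptor Relt (1.29) were higher. The values in parentheses are log2 fold changes of genes with an adjusted p under 0.05.

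In mice that swam, AOM/DSS was followed by a smaller set of calls. Between Model_Swim and Ctrl_Swim 3 members were higher and 0 lower, against 3.49% and 1.69% of all genes (5.18% in all), and the median log2 fold change over the members was 0.29. They were Tnfrsf1b (0.88 ± 0.12, adjusted p = 0.00468), Tnf (2.18 ± 0.45, adjusted p = 0.0250) and osteoprotegerin, Tnfrsf11b (2.69 ± 0.56, adjusted p = 0.0245), the last a call lost with the squamous covariate. All 3 also passed between Model and Ctrl, a comparison of other mice, and 4.07% of all genes passed in both. The groups did not overlap in 15 members, all higher in Model_Swim, beside 15.9% of all genes. They included Tnfrsf9, Tnfrsf10b, Tnfrsf18, Tnfrsf22, Cd40lg, Tnfsf9 and Tnfsf15, with log2 fold changes from 0.51 to 1.75. Leaving out a mouse of these groups other than Model_Swim 1 left 1 call, Tnfrsf1b, in fits where 1.08% to 2.92% of all genes passed. Without Model 3 there were 4 calls and in a fit of only these 6 mice 6, where 9.30% and 8.59% of all genes passed.

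Several receptors of activated lymphocytes and of TRAIL came close. Tnfrsf9 had 0.657, 0.479 and 1.02 CPM in Ctrl_Swim 2, 3 and 4 and 1.49, 2.56 and 2.70 CPM in Model_Swim 1, 2 and 3 (log2 fold change 1.63 ± 0.53, adjusted p = 0.0992). Tnfrsf8 (CD30) had 0.493, 0.160 and 0.358 and 2.64, 3.86 and 2.76 CPM in the same mice (log2 fold change 3.17 ± 0.90, adjusted p = 0.0687). The Ctrl_Swim mice of Tnfrsf8 had few counts, and the Model_Swim mice lay close together. Tnfrsf10b had 9.86, 10.002 and 6.90 and 13.98, 13.0 and 11.7 CPM (adjusted p = 0.0628), and Tnfsf9 0.493, 0.798 and 0.562 and 1.27, 2.23 and 1.75 CPM (adjusted p = 0.0902). Tnfrsf10b and Tnfrsf8 passed in 5 of the alternative fits each. Ltbr, lower in Model than in Ctrl, had 123, 112 and 109.7 CPM in Ctrl_Swim and 112, 111 and 118 CPM in Model_Swim mice, with overlap (log2 fold change -0.01 ± 0.06).

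Tnfrsf13c, Ltb and Cd27, called between Model and Ctrl, did not pass in swimming mice. Tnfrsf13c had 2.63, 2.61 and 5.52 CPM in Ctrl_Swim 2, 3 and 4 and 4.07, 3.54 and 2.44 CPM in Model_Swim 1, 2 and 3 (log2 fold change -0.10 ± 0.33). Ltb had 5.64, 5.85 and 12.9 and 6.99, 8.65 and 8.01 CPM in the same mice (log2 fold change -0.05 ± 0.30), and Cd27 0.877, 0.958 and 4.91 and 1.43, 0.870 and 2.07 CPM. In each of these genes Ctrl_Swim 4 was the highest of the 6 mice. Without it the log2 fold change between Model_Swim and Ctrl_Swim was 0.35 for Tnfrsf13c, 0.45 for Ltb and 0.66 for Cd27, and none of them passed. Of the TNF-induced genes 6 of 18 were higher in Model_Swim than in Ctrl_Swim, beside 3.49% of all genes, among them Cxcl5 (means of 30.8 and 0.469 CPM) and Lcn2 (2.71 on the log2 scale), and of the lymphotoxin list only Nfkb2 was (0.41). Of the adaptors and kinases Ripk3 (0.80) and Traf3 (0.26) were higher and Fadd (-0.33) lower, and of the brakes Tnfaip3 (0.74) and Otud7b (0.27) were higher. Macrophage markers were higher in 8 of 11 genes and B cell and T cell markers in 0 of 13 each.

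Swimming in AOM/DSS mice was addressed by Model_Swim against Model. No member passed by edgeR (0 calls), DESeq2 or limma, and 0.0710% of all genes did. At an unadjusted p under 0.05 there were 5 members, beside 13.6% of all genes, and all were lower in Model_Swim: Tnfrsf13c, Tnfrsf11a, Cd40, Tnfrsf13b and Ltb. Of the 38 members 33 had a log2 fold change below 0, with a median of -0.29 beside -0.01 over all genes, of which 48.2% had a value above 0. The mice of the 2 groups did not overlap in 7 members that were lower and in 1, Ltbr, that was higher in Model_Swim, beside 8.57% and 8.32% of all genes. Cd40 was at 4.61, 4.52 and 6.08 CPM in Model and 2.59, 2.77 and 2.97 CPM in Model_Swim mice (-0.87 ± 0.28, adjusted p = 0.253), and Tnfrsf13c had a log2 fold change of -1.12 ± 0.33 (adjusted p = 0.216). Tnf, with Model_Swim 1 below and Model_Swim 2 and 3 inside the range of Model mice, had -0.54 ± 0.42 (adjusted p = 0.609).

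The calls of this comparison depended on which Model mice were kept, over all genes as well. Without Model 3, 2 members passed as lower in Model_Swim, Tnfrsf1b (log2 fold change -0.35, adjusted p = 0.0273) and Tnfrsf11a (-0.38, adjusted p = 0.0315). These are 2 of 38 members, beside 5.62% of all genes in that fit. With Model 2 as the lone Model mouse only Tnfrsf11a did, beside 3.57% of all genes. With Model 3 as the lone Model mouse, Tnfrsf11b (1.77) and Tnfrsf19 (1.31) passed as higher in Model_Swim, beside 1.07% of all genes in either direction. The log2 fold change was below 0 in 13 of 13 B cell markers, with sums of 113, 117 and 76.3 CPM in Model_Swim 1, 2 and 3, and 0 of them passed. Their part in the values of Ltb, Tnfrsf13c and Cd40 was not tested.

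Swimming in untreated mice gave 0 calls by edgeR as well, beside 0.969% of all genes, with 9 members (and 17.6% of all genes) at an unadjusted p under 0.05. The smallest adjusted p was that of Tnfrsf11a, RANK, with 105, 103 and 113 CPM in Ctrl and 87.2, 86.1 and 77.2 CPM in Ctrl_Swim mice (log2 fold change -0.36 ± 0.09, adjusted p = 0.108). It did pass by DESeq2 (adjusted p = 0.0198) and in a fit of these 6 mice alone (0.0284), as did 3.55% and 2.49% of all genes. Tnfrsf11a was also without overlap between Model_Swim and Model, in the same direction, and these comparisons share no mouse. Of all genes 14.9% were lower without overlap in Ctrl_Swim than in Ctrl, and 8.57% in Model_Swim than in Model. The share that was so in both was not computed. Of the pathway lists, 1 gene passed in this comparison, Timp3, an inhibitor of the shedding protease (0.38), and 0 passed between Model_Swim and Model. Groups did not overlap in 6 members that were higher and 6 that were lower in Ctrl_Swim, beside 12.6% and 14.9% of all genes.

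Among untreated mice Ctrl_Swim 4 was the highest for many members. Of the 38 members tested 16 (42.1%) were highest in this mouse among the 6 untreated ones, and so were 19.9% of 15398 genes with at least the mean level of the lowest member tested. Cd27 had 4.91 CPM there and 0.386 to 0.990 CPM in the other 5 mice. With Ctrl_Swim 4 left out, the log2 fold change between Ctrl_Swim and Ctrl went from 1.84 to 0.56 for Cd27, from 0.86 to 0.37 for Ltb and from 0.93 to 0.48 for Tnfrsf13c, and 2 members in place of 9 had an unadjusted p under 0.05. B cell markers summed to 225 CPM in this mouse and to 77.7 and 104 CPM in Ctrl_Swim 2 and 3, and their part in these values was not tested.

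**Figure D5:**
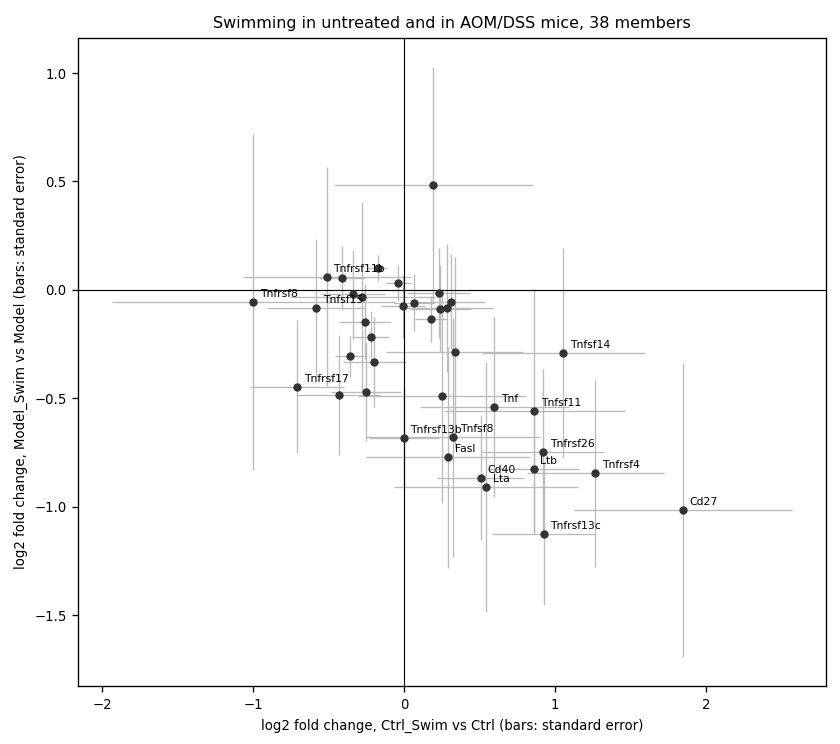
Log2 fold change with its standard error for the 38 members tested, swimming in untreated mice on the horizontal axis and swimming in AOM/DSS mice on the vertical axis. In 20 members the value is below 0 in AOM/DSS mice and above 0 in untreated mice, and no member passed in either comparison. The share of all genes with these signs was not computed.

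An interaction term compared swimming in AOM/DSS mice with swimming in untreated mice. No member passed by edgeR or limma (0 of 15484 genes did by edgeR), 8 members and 19.0% of all genes had an unadjusted p under 0.05, and DESeq2 called 3 members, Ltb, Tnfrsf13c and Tnfrsf4, and 4.20% of all genes. The median over the members was -0.28. Of the 38 members 20 had a log2 fold change with swimming that was below 0 in AOM/DSS mice and above 0 in untreated mice, and in 13 it was below 0 in both. The shares of all genes with these signs were not computed, so the counts are not read as a trait of the family. The largest of the 8 was Cd27 (-2.86 ± 0.99, adjusted p = 0.168), which was -1.59 without Ctrl_Swim 4. Without the squamous-rich Model 1 and Model 2, 1 member passed, Tnfrsf11b (beside 1.58% of all genes, interaction 2.26, adjusted p = 0.0177).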

How the data were processed

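RNA of colorectal tissue from 12 mice, 1 library per mouse, was sequenced after poly(A) selection with a stranded kit. Raw counts per gene were deposited by the authors, who used Trimmomatic for trimming, HISAT2 for alignment (GRCm38.p6) and HTSeq-count for counting. The paper names Cufflinks for the FPKM values. Within a gene the deposited FPKM were proportional to its share of the library's counts (largest SD over mean 9.31e-08). Fits on FPKM therefore rest on the same counts and are not a second quantification. Tool versions, the annotation release and the strand setting of the counting are not given in the sources used here. The sources differ on the RNA extraction (mirVana in the labels, TRIzol in the methods).

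Counts were fitted for all 4 groups together with edgeR 4.0.16 (TMM, filterByExpr with a minimum count of 10, quasi-likelihood test, R 4.3.3), which left 15484 of 18514 genes, and p-values were adjusted by Benjamini-Hochberg over all of them. A gene passed at an adjusted p under 0.05. The standard error is the absolute log2 fold change over the square root of F. CPM are counts scaled to the TMM-corrected library size. The fit was checked on data with known answers. At 3 mice per group no two-sided exact permutation test can go below p = 0.1, so none is given.

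The 41 members and all lists were chosen with earlier results of these data known, so the counts of a list are descriptions. Named members were those of ligand and receptor pairs plus any other that passed, and named genes of a pathway list were up to 3 that passed with the largest change, as well as those lower where few were. Alternatives were DESeq2 1.42.0 and its size factors, limma 3.58.1 on log2(FPKM + 1) or log2(FPKM + 0.1), no filter, a 2-fold cutoff, the replicate number as a block, the mean log2 CPM of the acinar or squamous markers as a covariate, only the groups compared, and leaving out single mice or the acinar-rich Model 1 and Model 3. Leaving out the squamous-rich Model 1 and Model 2 was added after seeing the data. Promoter windows and positions are from RefSeq tables of GRCm38.p6. Exon overlaps and the stretches of bases shared between genes were computed from the GENCODE mouse annotation and its transcript sequences. Nothing in the sources says that mice of a group came from separate cages, so p-values measure the spread between these mice. The result for 1 gene of the death effector list is not reported here.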

Additional observations from a re-analysis of the deposited data

Results flagged for a closer look

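In 3 of the 38 members tested the swimming groups did not overlap in either comparison and went opposite ways, as in 393 of all 15484 genes (2.54%). Ltb and Tnfrsf13c were higher in every Ctrl_Swim mouse than in any Ctrl mouse and lower in every Model_Swim mouse than in any Model mouse. Ltbr went the other way in both. The difference between the effects of swimming, tested as an interaction with edgeR, was -1.69 for Ltb (adjusted p = 0.115), -2.05 for Tnfrsf13c (adjusted p = 0.115) and 0.28 for Ltbr (adjusted p = 0.148), so none of the 3 passed. Without Ctrl_Swim 4, the mouse with the highest B cell marker sum among those without AOM/DSS, the values were -1.21 for Ltb, -1.62 for Tnfrsf13c and 0.22 for Ltbr, with adjusted p-values of 0.219, 0.219 and 0.351. DESeq2 called Ltb and Tnfrsf13c in this test, and 4.20% of all genes, while edgeR called 0 genes. No group has 4 or more mice, so single mice were not tested as outliers.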

How the results depend on the processing

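The directions of all 18 members that passed between Model and Ctrl were kept under all alternatives run. Their number, 18, was 11 with a 2-fold cutoff, 11 with the acinar covariate and 8 with the squamous covariate. Leaving out single mice gave 12 (without Ctrl 2 or Ctrl 3, where 20.1% and 20.8% of all genes passed) to 24 (without Model 3, where 35.8% did). Between Model_Swim and Model, where 0 passed, 1 did without Model 1 and Model 3 and 2 did without Model 1 and Model 2, and leaving out single mice gave 0 to 2 (without Model 3). Between Ctrl_Swim and Ctrl, where 0 passed, 1 member, Tnfrsf11a, did by DESeq2, without Model 1 and Model 3, with only the groups compared and without Model 1 and Model 2, and leaving out single mice gave 0 to 1 (without Model 2). Between Model_Swim and Ctrl_Swim, where 3 passed, there were 7 by DESeq2 and 6 with only the groups compared, beside 8.44% and 8.59% of all genes. Without single mice there were 1 to 4, in fits where 1.08% to 9.30% of all genes passed. The interaction, with 0, gave 3 by DESeq2, 1 without Model 1 and Model 2, and 0 to 0 without single mice. The cause of these moves was not tested. The share of all genes called moved as well, by DESeq2 to 8.44% between Model_Swim and Ctrl_Swim and to 4.20% in the interaction. Of the 18 members, Tnf, Ltb, Tnfrsf1b and Tnfrsf13c lost the call in 0 of 24 alternative fits, Cd27 in 11 and Tnfsf11 in 9. The order of members by median rather than mean FPKM in Ctrl moved the rank of 18 members. Whether the replicate numbers of the labels pair the mice could not be decided. Over 15 pairs of same-numbered mice the deviations from the group means correlated between -0.26 and 0.56, only 4 of them above 0.1. The value of 0.56, between Ctrl_Swim 3 and Model 3, was the highest of all pairs between groups. Of the 12 mice 3 correlated best with their own number, and Ctrl_Swim 4 had no mouse of its number in another group. With the replicate number as a block, 17 members passed between Model and Ctrl, beside 27.9% of all genes, and 0 in each of the other comparisons. The 3 calls between Model_Swim and Ctrl_Swim were thus lost (adjusted p for Tnfrsf1b 0.0601), in a fit where 0.258% of all genes passed in that comparison. Depth limits what can be said of Cd70, Tnfsf4, Tnfsf18, Cd40lg and Tnfsf14.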
